A study of Mus musculus with 46 samples.

Results

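The genes described here encode enzymes of the metabolism of tryptophan, arginine and related compounds, which can change T cell responses when expressed in myeloid cells. They were taken by name from a table of gene expression values in MC-38 tumors and are 10 of the 48795 genes in it: Ido1, Ido2, Kynu, Nos2, Arg1, Arg2, Acod1, Il4i1, Wars and Ass1. The rule that names them uses no measured value, but earlier results of these data were known when it was set. RNA was measured by RNA-seq in 46 bulk samples of 8 groups, of which 43 samples were tumors.

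MC-38 is a mouse colon carcinoma line, and it was measured in culture (n = 3) and as tumors in the flank of female C57BL/6NTac mice aged 8 to 10 weeks. Baseline tumors (n = 3) came from mice with no antibody. In the antibody study, mice received an isotype control antibody or muDX400, an antibody against mouse PD-1, at 5 mg/kg every 4 days from day 7 after implant. Tumors were taken at day 4 of treatment, with 1 dose given, or at day 8 of treatment, with 2 doses given (n = 5 in each of the 4 groups). These days count from the first dose. In the deletion study, mice labelled PD-1cKO carried a tamoxifen-inducible Cre at ROSA26 that is active in all tissues, and Pdcd1 alleles with loxP sites around exons 2 and 3. The mice labelled WT were their littermates. Both groups received tamoxifen at 40 mg/kg on 5 consecutive days and carry the label of 28 days (n = 10 each). The study's results also give 28 days after implant for these tumors, but its methods give an earlier day, so their age is uncertain. These alleles belong to the host mice and not to the implanted MC-38 cells. The authors gave each gene an FPKM value, the fragments of a gene relative to transcript length and to all mapped fragments of that library, so levels can be compared between genes of a sample. Between samples they depend on what else each library holds, which is given below.

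Ido1 and Ido2 start the breakdown of tryptophan to kynurenine, Kynu cleaves kynurenine further down that pathway, and Wars, the cytoplasmic tryptophanyl-tRNA synthetase, loads tryptophan for protein synthesis. Nos2 and Arg1 compete for arginine: Nos2 makes nitric oxide from it and Arg1 makes urea and ornithine, while Arg2 is the mitochondrial arginase and Ass1 rebuilds arginine from citrulline. Acod1 makes itaconate from cis-aconitate in activated macrophages, and Il4i1 is a secreted oxidase of phenylalanine and other aromatic amino acids. As background, Ido1, Kynu, Nos2, Acod1, Wars and Ass1 are known as genes induced by interferon-gamma or other inflammatory signals, Arg1 and Arg2 as arginases of alternatively activated or suppressive myeloid cells, and Il4i1 as responding to both kinds of signal.

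The genes lie on 7 chromosomes in the GRCm38 annotation. Ido1 (chr8:24584136-24597009, minus strand) and Ido2 (chr8:24531892-24576333, minus strand) are neighbors. Kynu lies at chr2:43555329-43682715 and Ass1 at chr2:31470207-31520672, both on the plus strand. Nos2 lies at chr11:78920787-78960254, Acod1 at chr14:103046977-103056573 and Arg2 at chr12:79130777-79156301, all on the plus strand. Arg1 lies at chr10:24915221-24927484 and Wars at chr12:108860030-108894174, both on the minus strand. Il4i1, at chr7:44816387-44840809 on the plus strand, shares bases with Nup62 on the same strand, and Nup62 had a mean of 27.2 FPKM over the tumors, so the values of Il4i1 are uncertain. It also overlaps Atf5 and Tbc1d17 on the opposite strand, as Arg2 does Vti1b and Wars does Wdr25; whether the counting used strand is not given in the sources used here.

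RefSeq (GRCm38.p6) gave a promoter for 3 of the 10 genes, and their 250 bases before the start are shown because Acod1 was called higher after PD-1 Ab in the comparisons below and the other two were not. The windows, all on the plus strand, are chr14:103046762-103047011 for Acod1, chr2:31470020-31470269 for Ass1 and chr7:44836038-44836287 for Il4i1. Each RefSeq start lies inside the GENCODE bounds given above, near the first base for Acod1 and Ass1 and far downstream of it for Il4i1, whose GENCODE gene begins earlier. Capitals mark the TATA motif (TATAAA), which was found only in Acod1, 28 bases before the start.
Acod1: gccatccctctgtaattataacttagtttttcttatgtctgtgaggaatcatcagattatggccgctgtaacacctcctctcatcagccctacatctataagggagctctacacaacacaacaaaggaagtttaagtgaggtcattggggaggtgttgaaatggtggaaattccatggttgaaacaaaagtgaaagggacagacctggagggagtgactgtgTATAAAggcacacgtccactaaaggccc
Ass1: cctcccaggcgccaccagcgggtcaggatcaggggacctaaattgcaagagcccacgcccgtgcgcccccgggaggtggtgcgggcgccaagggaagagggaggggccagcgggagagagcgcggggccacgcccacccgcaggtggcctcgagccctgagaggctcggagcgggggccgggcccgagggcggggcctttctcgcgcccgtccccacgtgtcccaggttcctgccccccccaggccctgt
Il4i1: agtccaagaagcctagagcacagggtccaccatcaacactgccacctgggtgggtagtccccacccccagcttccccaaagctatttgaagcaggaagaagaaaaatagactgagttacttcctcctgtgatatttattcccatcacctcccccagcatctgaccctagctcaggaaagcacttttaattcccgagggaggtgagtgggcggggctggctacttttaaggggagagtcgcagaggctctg
The Ass1 window held 23 CpG and 75.6% G and C, the Acod1 window 2 CpG and 44.4%, and the Il4i1 window 3 CpG and 53.2%. Over all 32851 windows of the table the medians were 6 CpG and 52.4%. The core of the interferon-stimulated response element (GAAANNGAAA) was not found on either strand of these 3 windows. The gamma-activated site (TTCNNNGAA) was not found in them either. Over all windows, GAAANNGAAA occurs in 2.98%, TTCNNNGAA in 7.02% and TATAAA in 12.4%. No link of these motifs to the calls was tested. The other genes, with no promoter entry, are Ido1, Ido2, Kynu, Nos2, Arg1, Arg2 and Wars.

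Some libraries stand apart. Mitochondrial genes held 54.6% of the FPKM of isotype control replicate 1 after 1 dose, and at most 7.65% in any other sample of the antibody study. Short RNAs held 30.2% to 54.6% of the FPKM in WT tumors and 31.1% to 66.5% in PD-1cKO tumors, against at most 0.0746% elsewhere, so levels of the antibody and deletion studies are set side by side below without a test between them. PD-1cKO replicates 4 and 8 had the lowest median correlation with the rest of their group (0.867 and 0.837). The sample identifiers of the deletion study fall into 3 runs: the first holds 7 PD-1cKO tumors, the second 1 PD-1cKO and 9 WT tumors, and the third 2 and 1, so the genotype is largely tied to the run. Gene-level Pdcd1 was 5.05 to 19.9 FPKM in PD-1cKO tumors and 1.71 to 7.02 in WT tumors, which does not check the deletion of exons 2 and 3.

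**Figure D1:**
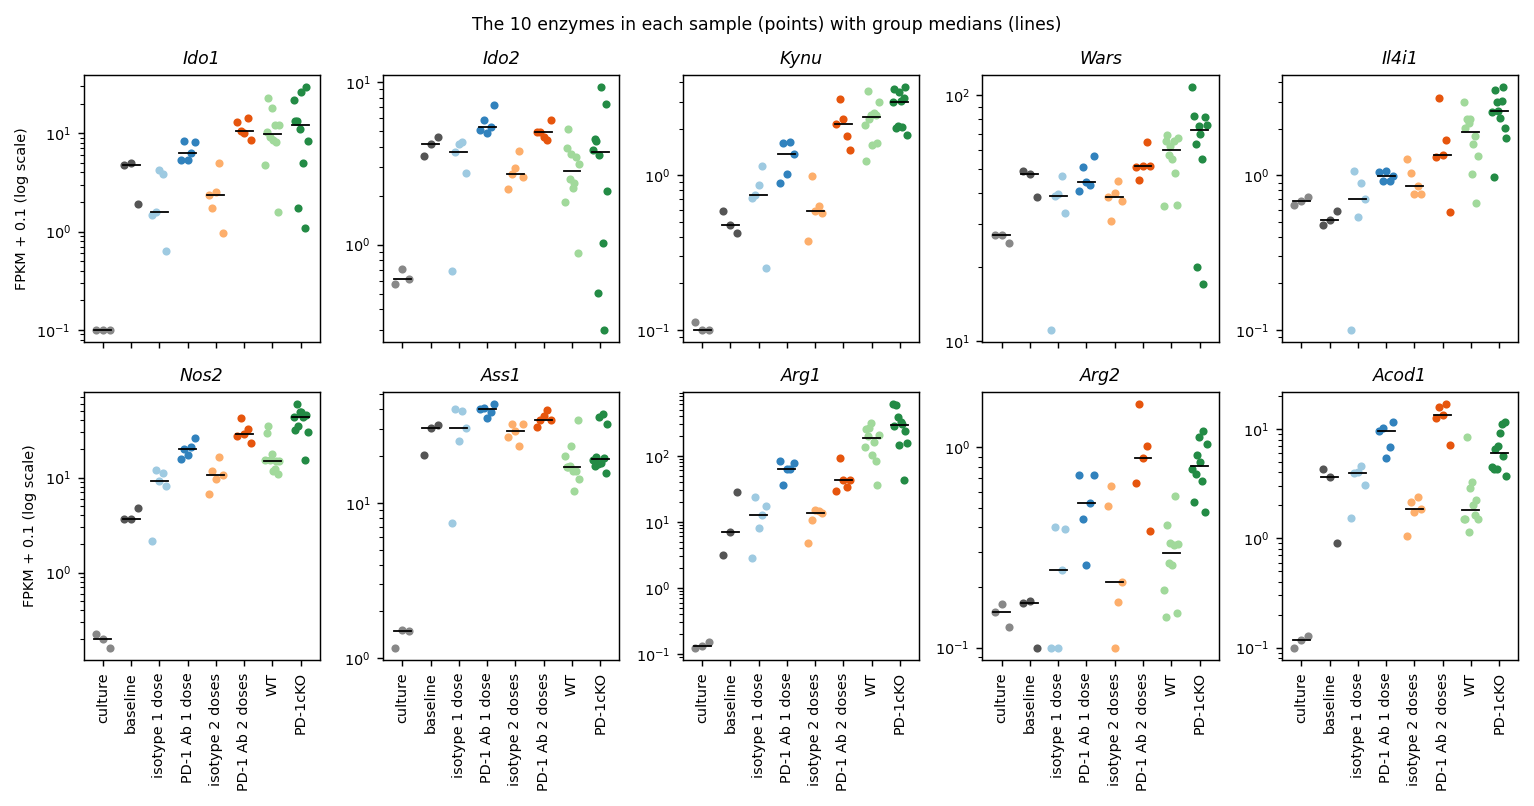
FPKM of the 10 enzymes in each sample (points, log scale) by group, with a line at the group median and 0.1 added to each value. Arg1 runs from at most 0.0508 FPKM in culture to 602 in a PD-1cKO tumor, while Wars stays between 11.0 and 108.

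The tumors and not the cultured cells held most of the RNA of these enzymes. Cultured MC-38 cells had substantial levels of Wars alone (26.9, 27.0 and 25.0 FPKM), with Ass1 at 1.07, 1.41 and 1.40. Ido1 was listed at 0 in all 3 cultures, Acod1 was at 0, 0.0179 and 0.0286, and Arg1 was at 0.0245, 0.0319 and 0.0508. In isotype control tumors after 2 doses, Ass1 stood at 26.4, 32.4, 29.0, 23.2 and 32.3 FPKM, and every tumor was above every culture. Of the 9 genes tested between isotype control tumors of 2 doses and culture, 7 were higher by limma (Benjamini-Hochberg adjusted p under 0.01 and at least a 2-fold change), against 14.2% of all tested genes. These were Arg1 (log2 difference 6.34, SE 0.36, adjusted p 6.62e-07), Nos2 (5.76, SE 0.27), Ass1 (4.36, SE 0.15), Acod1 (3.95, SE 0.30), Kynu (2.53, SE 0.34), Ido2 (2.16, SE 0.20) and Ido1, for which no fold can be given. In all 9 genes tested, every tumor was above every culture, against 26.3% of genes. Wars was higher by 0.53 (SE 0.11, adjusted p 0.00401), under the 2-fold limit, and Il4i1 by 0.43 (adjusted p 0.143), while Arg2 fell under the level filter of a mean of 0.5 FPKM in either group. The summed FPKM of 10 macrophage markers was 9.05 to 10.7 in culture, with Adgre1, C1qa, C1qb and Itgam at 0, and 989 to 1325 in these tumors. In bulk tissue, fewer cells of a type and less RNA per cell cannot be told apart.

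Baseline tumors were compared with isotype control tumors of 2 doses, and none of the enzymes was called. Nos2 was at 3.54, 3.53 and 4.68 FPKM in baseline tumors, below all 5 isotype control tumors of 2 doses (6.58, 11.6, 9.51, 16.3 and 10.6). The log2 difference of Nos2 was -1.41 (SE 0.25, limma adjusted p 0.0195). Il4i1 was the other gene whose baseline tumors were all lower (-0.81, adjusted p 0.184). The 2 of 10 genes without overlap compare with 5.51% of all genes. By limma 0 of the 9 genes tested were called, against 0.595% of all genes, and 3 of the 9 were under 0.05 before adjustment. Arg1 varied most among baseline tumors, at 3.09, 7.04 and 28.6 FPKM.

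Treatment with PD-1 Ab was compared with the isotype control after 2 doses to see which of the enzymes respond to blockade. Of the 10, 5 were higher after 2 doses, and they came from both sides of the division: Ido1, Kynu, Nos2 and Acod1 among those known as inflammatory, and Arg1 among the arginases. The largest change was that of Acod1, the itaconate enzyme.
Acod1 was at 12.5, 15.7, 13.4, 16.7 and 7.01 FPKM in PD-1 Ab-treated tumors and at 0.956, 2.06, 1.64, 2.28 and 1.74 in isotype controls. Every treated tumor was above every control. The log2 difference was 2.83 (SE 0.27, limma adjusted p 8.06e-04).
Ido1 was at 12.9, 10.3, 9.95, 14.3 and 8.48 FPKM with PD-1 Ab and at 2.25, 1.65, 2.43, 4.92 and 0.874 in isotype controls. Here too every treated tumor was higher, and the log2 difference was 2.34 (SE 0.35, limma adjusted p 0.00154). Kynu, which acts downstream of Ido1, was at 2.04, 3.01, 2.20, 1.70 and 1.36 FPKM against 0.275, 0.888, 0.485, 0.532 and 0.469. The log2 difference of Kynu was 1.80 (SE 0.29, adjusted p 0.00222).
The arginine-consuming enzymes rose side by side. Nos2 was at 27.0, 42.2, 28.7, 32.3 and 23.0 FPKM against 6.58, 11.6, 9.51, 16.3 and 10.6 in isotype controls, a log2 difference of 1.51 (SE 0.22, limma adjusted p 0.0014). Arg1 was at 29.2, 93.2, 42.5, 34.2 and 42.4 FPKM against 4.76, 10.4, 15.1, 14.6 and 13.7, a log2 difference of 2.01 (SE 0.35, adjusted p 0.00315). One treated tumor, replicate 2, stood far above the others in Arg1, and without it the difference was 1.74 (adjusted p 0.00693). In a fit of all tumor groups together, Ido1 (adjusted p 0.0134) and Arg1 (adjusted p 0.0168) missed the limit.

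The other 5 enzymes were not called after 2 doses. Ido2 was at 4.86, 4.84, 4.49, 4.33 and 5.72 FPKM against 2.11, 2.61, 2.87, 3.67 and 2.52, with no overlap, and its difference of 0.81 (SE 0.16, adjusted p 0.00576) was under the 2-fold limit. Wars, at 51.0, 45.03, 51.4, 64.7 and 51.5 FPKM against 38.6, 30.9, 40.0, 44.7 and 37.0, differed by 0.46 (SE 0.12, adjusted p 0.018). Arginine synthesis by Ass1 had the smallest difference (0.29, SE 0.11, adjusted p 0.0756). Arg2 differed by 1.66 (SE 0.56, adjusted p 0.0497) at low levels, 0.281 to 1.54 FPKM against 0 to 0.54, and Il4i1 by 0.62 (SE 0.38, adjusted p 0.252). In counts, 5 of 10 genes were called higher, against 5.03% of all tested genes, and 7 of 10 did not overlap, against 9.23%. The median log2 difference was 1.59 over the 10 genes and -0.04 over all genes tested.

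**Figure D2:**
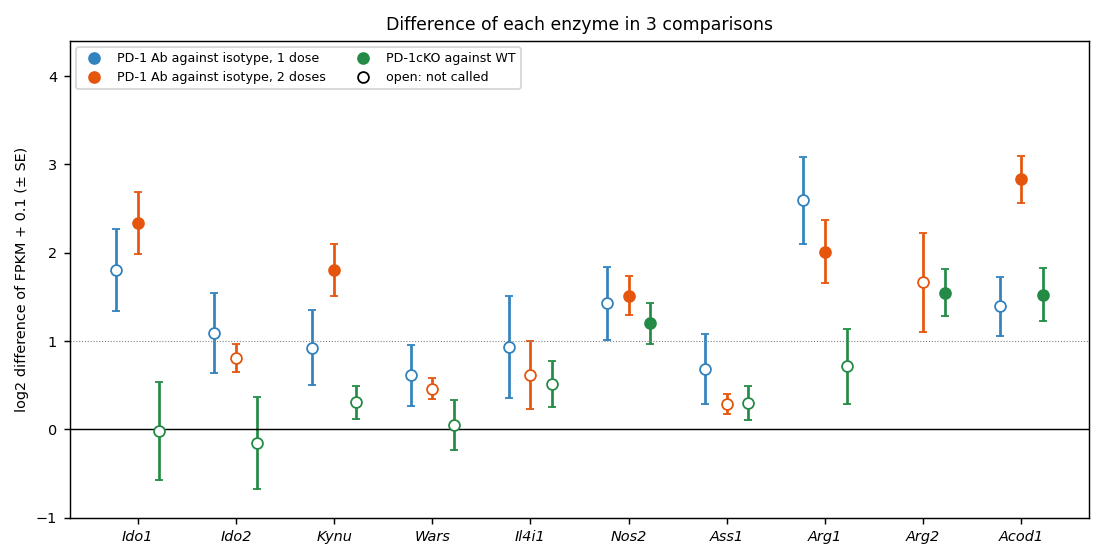
Log2 differences (points) with standard errors (bars) of the 10 enzymes for PD-1 Ab against isotype control after 1 and 2 doses and for PD-1cKO against WT, with filled points for genes called and open points for those not called. Acod1 and Nos2 were called both after 2 doses (2.83 and 1.51) and in PD-1cKO tumors (1.52 and 1.20), and Ido1, Kynu and Arg1 were filled after 2 doses alone.

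After 1 dose the largest differences belonged to Arg1, Ido1, Nos2 and Acod1, but no gene of the whole table was called. Arg1 was at 84.1, 36.2, 62.5, 62.8 and 76.5 FPKM with PD-1 Ab and at 2.73, 23.3, 7.86, 12.4 and 17.5 in isotype controls. Every treated tumor was higher, and the log2 difference was 2.59 (SE 0.49, limma unadjusted p 1.95e-04, adjusted p 0.157). Nos2 was at 15.6, 20.0, 17.4, 20.9 and 26.3 FPKM against 2.07, 12.0, 9.09, 11.1 and 7.99 (log2 difference 1.43, adjusted p 0.41).
Acod1 was at 9.54, 10.1, 5.31, 6.81 and 11.6 FPKM against 1.42, 3.83, 3.93, 4.50 and 2.99 (1.39, adjusted p 0.268). Ido1 was at 5.30, 8.17, 5.29, 6.22 and 7.95 FPKM against 1.36, 1.47, 4.10, 3.72 and 0.537 (1.80, adjusted p 0.287). Neither gene overlapped between the groups. Ido2 was the fifth gene without overlap, with a difference of 1.09 (adjusted p 0.736), and 5 of 10 compares with 3.59% of all genes.
Of the 9 genes tested, limma called 0 (0% of all genes passed), and 6 were under 0.05 before adjustment. The median difference was 1.09 over these 9 genes and 0.26 over all genes tested, the latter being 0.01 after median-of-ratios scaling, under which Arg1 differed by 2.34 (adjusted p 0.0387). Isotype control replicate 1, with its high mitochondrial share, was the lowest of its group for Nos2, Acod1, Arg1, Ido2, Il4i1, Wars and Ass1. Without it the differences were 2.13 for Arg1 (adjusted p 0.016), 0.99 for Nos2 (0.0248), 1.123 for Acod1 (0.0463) and 1.71 for Ido1 (0.111), and none of the enzymes passed the limit of 0.01.
The differences after 2 doses and after 1 dose were also compared with each other. For Acod1 the difference was larger after 2 doses by 1.44 (SE 0.44, limma adjusted p 0.623), and for Arg1 it was -0.58 (adjusted p 0.705). None of the 10 genes passed in this test (0% of all genes did), and Acod1 was the 1 gene under 0.05 before adjustment.

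Tumors of PD-1cKO mice were compared with those of WT mice to see which enzymes differ under deletion of Pdcd1. Of the 10 enzymes 3 were higher in PD-1cKO tumors, Nos2, Acod1 and Arg2, against 4.20% of all tested genes (limma). Ido1, the first enzyme of the kynurenine pathway, was not called.
Nos2 ranged from 15.2 to 59.0 FPKM in PD-1cKO tumors (median 43.2) and from 10.9 to 34.7 in WT tumors (median 14.9). Of the 10 PD-1cKO tumors, 7 were above every WT tumor. The log2 difference was 1.20 (SE 0.23, limma adjusted p 0.00124).
Acod1 ranged from 3.58 to 11.5 FPKM (median 5.98) against 1.05 to 8.36 (median 1.73), a difference of 1.52 (SE 0.30, adjusted p 0.00147). Only 3 PD-1cKO tumors were above every WT tumor, because WT replicate 3 stood at 8.36. Without that tumor the difference was 1.74 (adjusted p 2.31e-04).
Arg2 ranged from 0.376 to 1.11 FPKM (median 0.709) against 0.0417 to 0.47 (median 0.196). Of the PD-1cKO tumors 8 were above every WT tumor, and the difference was 1.55 (SE 0.27, adjusted p 7.66e-04).
These levels of Arg2 are low, and with 1 FPKM added before the log in place of 0.1 its difference was 0.53.

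The remaining enzymes were not called between PD-1cKO and WT. Arg1 reached the highest levels of any of the enzymes in these tumors, 43.6 to 602 FPKM (median 292) in PD-1cKO and 35.5 to 319 (median 184) in WT, and the groups overlapped widely (log2 difference 0.72, SE 0.42, adjusted p 0.169). Ido1 ranged from 0.983 to 29.6 FPKM (median 12.0) in PD-1cKO and from 1.48 to 22.4 (median 9.62) in WT, with a difference of -0.02 (SE 0.56, adjusted p 0.979). With this SE, a difference of 2-fold in either direction would not have passed the test for Ido1. Kynu (0.31, adjusted p 0.193), Wars (0.05, adjusted p 0.887), Ass1 (0.30, adjusted p 0.207), Il4i1 (0.52, adjusted p 0.11) and Ido2 (-0.16, adjusted p 0.821) also missed the limit. All 10 genes overlapped between the genotypes, and 0.643% of all genes did not overlap and were higher. The median difference was 0.41 over the 10 genes and -0.20 over all genes tested, the latter being -0.04 after median-of-ratios scaling.
The tumors that stand apart, PD-1cKO replicates 4 and 8, had Ido1 at 1.64 and 0.983 FPKM. Without both, the same 3 genes were called, with Nos2 at 1.38 (adjusted p 7.81e-04), Acod1 at 1.61 (adjusted p 0.00241) and Arg2 at 1.45 (adjusted p 0.0023). Ido1 then differed by 0.65 (adjusted p 0.237), Ido2 by 0.50 (adjusted p 0.297) and Wars by 0.46 (adjusted p 0.0281).

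Within the runs of sample identifiers the calls rest on few tumors. In the second run, the only PD-1cKO tumor, replicate 8, had Nos2 at 15.2 FPKM and the 9 WT tumors 10.9 to 34.7. For Acod1 the values were 5.54 and 1.05 to 8.36, and for Arg2 1.11 and 0.0417 to 0.47. The Arg2 value was above all 9 WT tumors, that of Acod1 was above all of them but WT replicate 3, and that of Nos2 lay among them. In the third run, Nos2 was at 29.9 and 45.5 FPKM in the PD-1cKO tumors and 14.8 in the WT tumor, Acod1 at 3.58 and 11.5 against 1.39, and Arg2 at 0.376 and 0.945 against 0.228. With the run as a covariate, limma called no gene of the table, and the differences were 0.49 for Nos2 (adjusted p 0.331), 1.66 for Acod1 (adjusted p 0.0382) and 1.72 for Arg2 (adjusted p 0.0272). The differences of Arg1, Ido1 and Ido2 moved furthest there. They moved to -1.04 (adjusted p 0.206), -1.55 (adjusted p 0.203) and -1.65 (adjusted p 0.149), and that of Arg1 changed sign. The first run holds no WT tumor, so run and genotype cannot be told apart there.

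The responses to antibody and to deletion were compared by a test of their difference. Kynu came closest, with a response larger by 1.50 (SE 0.34, limma adjusted p 0.0344) to the antibody. The difference was 2.36 for Ido1 (SE 0.87, adjusted p 0.199), 1.31 for Acod1 (SE 0.49, adjusted p 0.202), 1.30 for Arg1 (SE 0.68, adjusted p 0.342) and 0.31 for Nos2 (adjusted p 0.683). None of the 10 genes passed, against 0.0975% of all genes, and Ido1, Kynu and Acod1 were the 3 under 0.05 before adjustment. The call of Ido1, Kynu and Arg1 in one study and not in the other is therefore not shown to be a difference between antibody and deletion.

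Nos2 and Arg1 use the same substrate, and their balance was followed as the log2 of Nos2 over Arg1 in each sample, with 0.1 FPKM added to both. In isotype controls after 2 doses the balance was near even, at 0.46, 0.15, -0.66, 0.15 and -0.37, and 3 of 5 tumors held more Nos2 than Arg1. After 2 doses of PD-1 Ab it was -0.11, -1.14, -0.56, -0.08 and -0.88, so all 5 held more Arg1. The range of these tumors overlapped that of their isotype controls. After 1 dose of PD-1 Ab it was -2.43, -0.85, -1.84, -1.58 and -1.53, against -0.38, -0.95, 0.21, -0.16 and -1.12 in isotype controls of that day.
Arg1 thus exceeded Nos2 in every PD-1 Ab-treated tumor of both time points. Most tumors of 2 groups without PD-1 Ab also held more Arg1: Nos2 was higher in 1 of 5 isotype controls of 1 dose and 1 of 3 baseline tumors. The tumors of the deletion study were further toward Arg1, with a mean of -2.71 (range -3.79 to -1.51) in PD-1cKO and -3.20 (range -4.18 to -1.69) in WT, and none of the 10 in either group was above 0. Baseline tumors ranged from -2.59 to 0.19. The mean log2 level of the 6 enzymes known as inflammatory, less that of Arg1, averaged -1.002 in isotype controls and -1.48 with PD-1 Ab after 2 doses, and -0.95 and -2.40 after 1 dose. It averaged -4.17 in PD-1cKO and -4.01 in WT tumors.

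**Figure D3:**
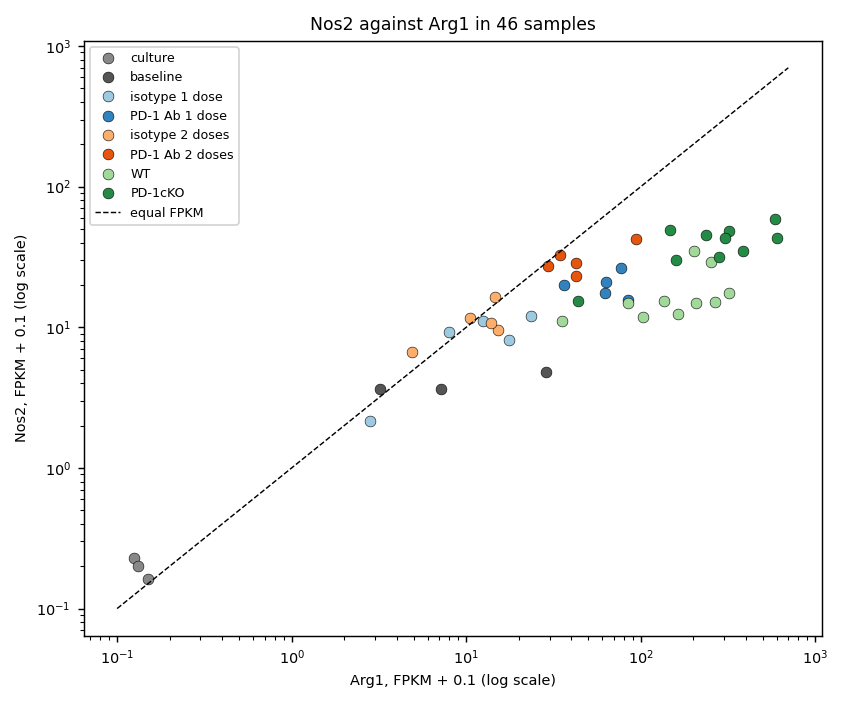
FPKM + 0.1 of Nos2 (vertical) against Arg1 (horizontal) in each sample, on log axes, colored by group, with the line of equal levels. All PD-1 Ab-treated, PD-1cKO and WT tumors lie on the Arg1 side of the line, and 3 of the 5 isotype control tumors of 2 doses on the Nos2 side. Of the isotype control tumors of 1 dose 1 of 5 lies on the Nos2 side, and of the baseline tumors 1 of 3.

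Across the 8 groups, the order of the mean FPKM differed between the enzymes. This order is a description, since libraries of the antibody and deletion studies differ in the share of short RNAs. PD-1cKO tumors had the highest mean for Ido1 (13.0 ± 9.91, SD, n = 10), Kynu (2.69 ± 0.734), Nos2 (40.0 ± 12.4), Wars (64.8 ± 28.1), Arg1 (307 ± 181) and Il4i1 (2.47 ± 0.838). PD-1 Ab-treated tumors of 2 doses had it for Acod1 (13.1 ± 3.79, SD, n = 5) and Arg2 (0.818 ± 0.47), and those of 1 dose for Ass1 (39.6 ± 2.90) and Ido2 (5.56 ± 0.96). Culture was lowest for all but Arg2 and Il4i1, whose lowest mean was in baseline tumors.
Most neighbors in the order overlapped. Of 7 neighboring pairs of groups, 5 overlapped for Ido1 and Arg1, 7 for Wars and Arg2, and 6 for each of the other enzymes. For Ido1 the break among tumors lay between PD-1 Ab of 1 dose (mean 6.59) and baseline (3.79), and for Arg1 between PD-1 Ab of 2 doses (48.3) and baseline (12.9). For Il4i1 it lay between isotype controls of 2 doses (0.839) and culture (0.582). For Kynu, Nos2, Acod1, Ass1 and Ido2 only the step to culture had no overlap.

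Markers of several cell types were called as well. Over all genes, 5.03% were called higher after 2 doses, 4.20% in PD-1cKO tumors and 0% after 1 dose. Of 10 macrophage markers, 8 were called higher after 2 doses (median log2 difference 1.34) and 4 in PD-1cKO tumors (median 0.93), against 0 after 1 dose (median 0.78). Their summed FPKM was 1604 to 4165 with PD-1 Ab and 989 to 1325 in isotype controls after 2 doses, and 1442 to 4905 in PD-1cKO and 875 to 1518 in WT tumors. Markers of T and NK cells rose too, with 6 of 8 called after 2 doses (sums 31.5 to 131 against 7.18 to 15.7) and 6 of 7 tested in PD-1cKO tumors (24.4 to 109 against 10.1 to 35.0). Neutrophils can also express Arg1, and their markers summed to 7.63 to 402 FPKM in PD-1cKO and 5.02 to 16.0 in WT tumors, with 4 of 7 tested called higher. Fibroblast markers summed to 1662 to 8866 FPKM in PD-1cKO and 840 to 1679 in WT tumors (3 of 5 higher). After 2 doses neutrophil markers summed to 9.71 to 32.1 FPKM against 6.79 to 17.1 in isotype controls, with Csf3r higher (1.98) and S100a8 lower (-2.004). Endothelial markers then summed to 24.0 to 81.5 against 18.1 to 23.9, with Pecam1 called of 5. Adipose markers summed to 5.62 to 133 against 1.62 to 18.8, with Plin1 called of 5, and of 5 muscle markers Acta1 was called. The endothelial, adipose and muscle calls are thus 1 gene each. Dendritic cell markers were called in 3 of 8 after 2 doses and 0 of 7 tested in PD-1cKO tumors. B cell markers (0 of 4 tested) and epidermis markers (0 of 3 tested) had no call after 2 doses. Hepatocyte markers, looked at because liver expresses Arg1, Ass1 and Ido2, summed to at most 3.83 FPKM in any sample. The part of these cells in the changes of the enzymes was not tested.

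To set the enzymes beside the macrophage markers, the mean log2 level of the 10 markers was subtracted in each tumor, as a description without a test. The marker mean itself differed by 1.23 after 2 doses, 0.74 after 1 dose and 0.84 in PD-1cKO tumors. After 2 doses, what remained was 1.60 for Acod1, 1.11 for Ido1, 0.78 for Arg1, 0.57 for Kynu and 0.28 for Nos2. Acod1 was the only enzyme whose treated tumors all stayed above the controls on this scale.
Ido2 (-0.42), Il4i1 (-0.62), Wars (-0.77) and Ass1 (-0.94) lay below 0, so they differed by less than the markers. After 1 dose the remainder was 1.85 for Arg1, 1.06 for Ido1, 0.68 for Nos2 and 0.65 for Acod1, and of these Nos2 alone had no overlap. In PD-1cKO tumors it was 0.71 for Arg2, 0.68 for Acod1 and 0.36 for Nos2, and it was -0.12 for Arg1, -0.86 for Ido1 and -0.996 for Ido2, with overlap for every enzyme.

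**Figure D4:**
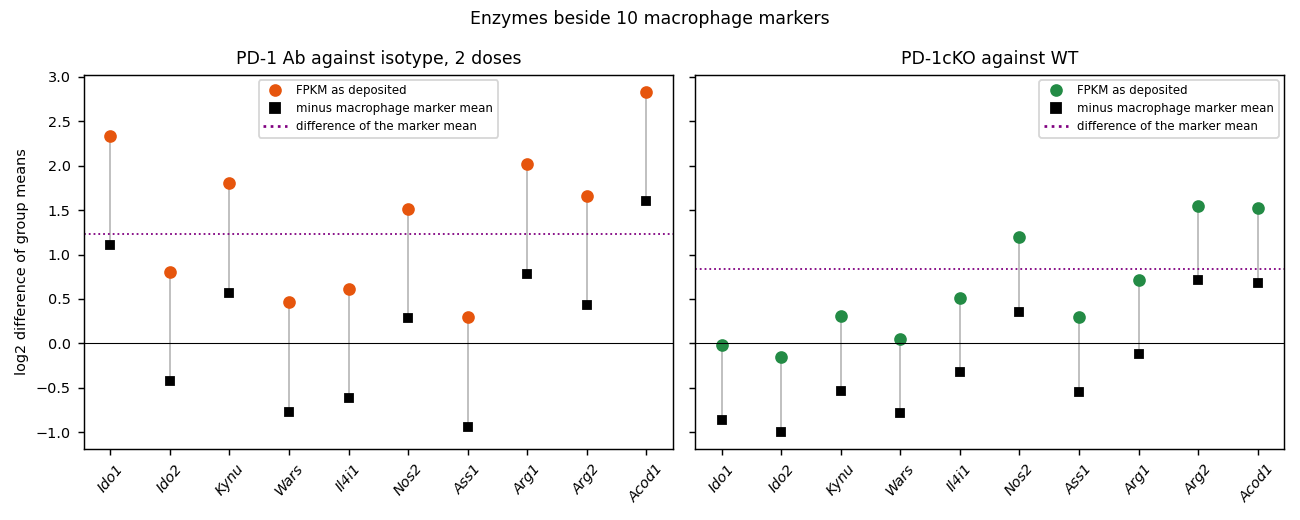
Log2 difference of group means for each enzyme as deposited (circles) and less the mean log2 level of 10 macrophage markers (squares), for PD-1 Ab against isotype control after 2 doses (left) and PD-1cKO against WT (right), with the difference of the marker mean as a dotted line. On the left Acod1 keeps 1.60 and Nos2 0.28, and 4 enzymes fall below 0.

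Lists of the other enzymes of the 3 pathways held no gene called after 2 doses. After 2 doses, 0 of 8 tested genes of the kynurenine pathway were called (median log2 difference 0.11), 0 of 17 of arginine and polyamine metabolism (median -0.17) and 0 of 12 around itaconate and the mitochondrial steps near it (median -0.17). Over all genes 5.03% were called higher there, and in lists of this size 0 is near that share. Of the arginine genes, 2 had an adjusted p under 0.01 by limma but were under the 2-fold limit. In PD-1cKO tumors the calls in these lists were all lower: Kyat3, a kynurenine aminotransferase (-1.13, limma adjusted p 0.00416), and Sucla2 (-1.07, adjusted p 0.00133) and Suclg2 (-1.04, adjusted p 0.00372), subunits of succinyl-CoA ligase. Over all genes 3.87% were called lower. The medians there were -0.10, -0.11 and -0.30, against -0.20 over all genes. The latter was -0.04 after median-of-ratios scaling. The called differences lie close to the 2-fold limit, and whether they pass it under that scaling was not looked at. With the identifier runs as a covariate, no gene of the table was called.
Between isotype control tumors and culture, 2 of 7 kynurenine pathway genes were higher: Kmo, kynurenine monooxygenase (3.28), and Haao, which was listed at 0 in culture. Of the 17 arginine genes 3 were higher there, Azin2 (1.75), Nos3, the endothelial nitric oxide synthase (2.90), and Sat1, a polyamine acetyltransferase (1.05), and 0 of 12 around itaconate were, against 14.2% of all genes.

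Genes of signals known to act on the enzymes were grouped by signal, and these lists hold targets of each signal as well as its components. Of 15 genes of the interferon-gamma axis, 7 rose after 2 doses (median 0.89), among them Ifng itself (log2 difference 2.52, limma adjusted p 0.00106), the target Gbp2 (1.88, adjusted p 0.00101) and Ciita, the regulator of MHC class II genes (2.22, adjusted p 0.00136). Of 13 tested genes of the IL-4 and alternative axis, 4 rose as well (median 1.22): Pdcd1lg2, which encodes the PD-1 ligand PD-L2 (3.56, adjusted p 8.06e-04), Il4ra, the IL-4 receptor chain (1.54, adjusted p 9.91e-04), Tgm2 (1.48, adjusted p 0.00101) and the lectin Clec10a (1.79, adjusted p 0.00732). Genes of both lists were thus among those that rose, and which signal acted on them was not tested. Of 10 other inducers, Irf8 rose (1.58, adjusted p 8.06e-04). Over all genes 5.03% were called higher.
In PD-1cKO tumors, 1 of 15 genes of the interferon-gamma axis rose, Ifng (1.02, adjusted p 0.00692), and 3 of 14 of the IL-4 axis, Clec10a (1.37, adjusted p 0.00223), Chil3 (2.75, adjusted p 0.00575) and Pdcd1lg2 (1.42, adjusted p 0.0082), against 4.20% of all genes. Of 8 other inducers there, Irf8 rose (1.06, adjusted p 4.14e-04) and Il1b fell (-1.16, adjusted p 0.00753). In the tests of the difference between antibody and deletion, and of 2 doses against 1, no gene of any of these lists passed.
In isotype control tumors against culture, 12 of 15 interferon-gamma genes, 12 of 13 IL-4 genes and 6 of 10 other inducers were higher, against 14.2% of all genes. Clec10a was lower in baseline than in isotype control tumors (-1.79, adjusted p 0.00568) and was the only call of that comparison in these lists.

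The genes whose levels followed each main enzyme most closely from tumor to tumor were found from deviations around the group means in the 43 tumors (Pearson r over 13228 genes, given as a description). Tumors of a study may share processing and may differ in cell content, and neither was tested here. For Ido1 the 5 nearest genes were Tgtp1 (r = 0.88), Gbp2 (0.86), Igtp (0.85), Gm12250 (0.83) and Gm12185 (0.82), of which Tgtp1, Gbp2 and Igtp are interferon-induced GTPases. The r of Ido1 and Tgtp1 was 0.74 in the 23 tumors of the antibody study and 0.93 in the 20 of the deletion study, and 0.83 without PD-1cKO replicates 4 and 8.
For Arg1 they were Ccl24 (0.84), Slc7a2 (0.75), F7 (0.74), Fosl2 (0.71) and Pdcd1lg2 (0.70). Ccl24 is an eosinophil-attracting chemokine of alternatively activated macrophages, and Slc7a2 carries arginine into cells. The r of Arg1 and Ccl24 was 0.83 in the antibody study and 0.86 in the deletion study, while that of Arg1 and Slc7a2 was 0.48 and 0.89.
For Nos2 they were Tgm2 (0.68), Pdcd1lg2 (0.67), Trim25 (0.67), Slc7a8 (0.65) and Furin (0.65). Pdcd1lg2 was on the lists of both Nos2 and Arg1, but on FPKM as deposited it stood at rank 60 for Nos2 and 9 for Arg1. Its r with Arg1 was 0.44 in the antibody study and 0.845 in the deletion study. For Acod1 they were Ly6i (0.78), Calhm6 (0.72), Ccl4 (0.71), Ccl3 (0.68) and Ifng (0.68). Without WT replicate 3, the tumor with high Acod1, the r of Acod1 was 0.70 with Ly6i and 0.60 with Ifng.

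Among the enzymes themselves, Ido1 varied with its neighbor Ido2 (r = 0.80, n = 43 tumors) and with Wars (0.77). For Ido1 and Ido2 this r was 0.15 in the antibody study and 0.94 in the deletion study, and 0.68 over all tumors without PD-1cKO replicates 4 and 8, so it rested mainly on the deletion study. Nos2 varied with Arg1 (0.60 over all tumors, 0.58 and 0.62 in the separate studies), although they are known for opposite kinds of macrophage activation. The r of Acod1 and Arg1 was -0.18, and that of Ass1 and Ido1 was -0.44.

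**Figure D5:**
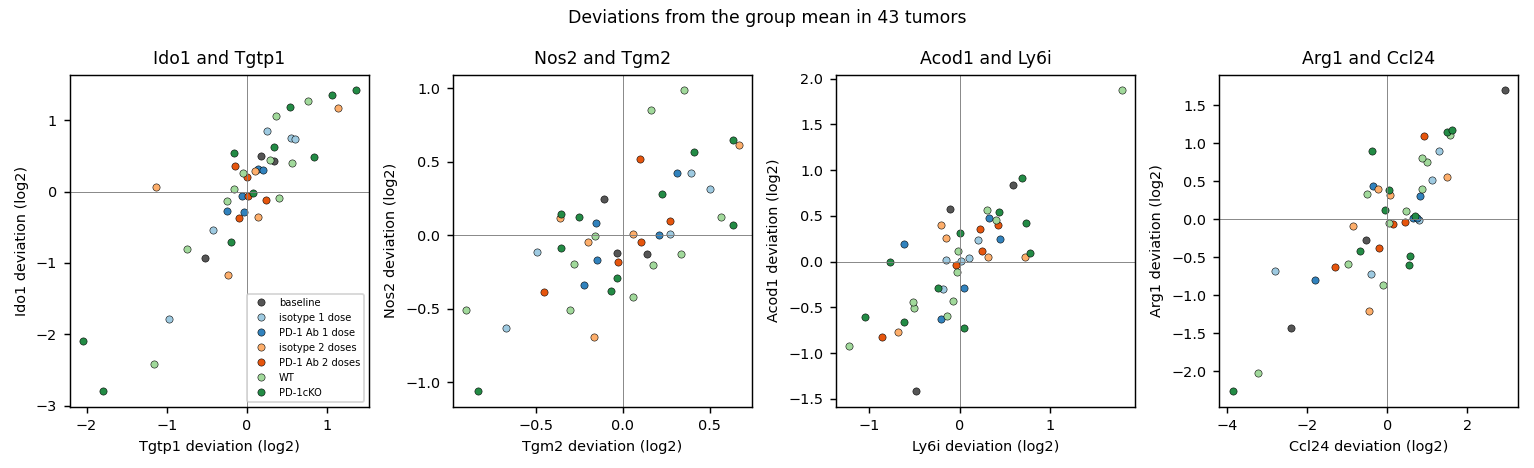
Deviation of Ido1, Nos2, Acod1 and Arg1 (vertical) against that of the most similar gene of each (horizontal), both as log2 differences from the group mean, with 1 point per tumor (43 tumors). The points follow a line most closely for Ido1 with Tgtp1 (r = 0.88) and Arg1 with Ccl24 (r = 0.84), and least for Nos2 with Tgm2 (r = 0.68).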

How the data were processed

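The deposited table holds FPKM, which the authors computed in Omicsoft Array Studio with the OSA aligner from paired 50-base reads on the mouse genome build B38 with Ensembl genes, after ribosomal depletion of total RNA. The authors tested their counts with DESeq2; those counts were not used here. FPKM removes the depth, so the depth per sample is unknown, and precision is the spread between replicates. Replicates were tumors from separate mice; nothing says that the cultures were separate, and their spread may be technical. All 46 columns were mapped to samples.

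Only genes whose mean reached 0.5 FPKM in 1 of the groups were kept, and they were fitted on log2(FPKM + 0.1) with limma 3.58.1 (R 4.3.3, eBayes with a trend) within the groups compared. Fold changes on this scale understate those of low genes. P-values, all two-sided, were adjusted over all tested genes by the Benjamini-Hochberg method, and calls needed both a 2-fold change and an adjusted p below 0.01. Differences between 2 responses needed only the adjusted p. The fit was tested on simulated data. Named genes were the 10 enzymes, at most the 4 called genes with the lowest adjusted p per list and comparison, and the 5 genes most like Ido1, Nos2, Acod1 and Arg1. A further called gene of the lists is not reported here by itself but is kept in the counts. The enzymes and lists were chosen with earlier results of these data known. Symbols and coordinates came from GENCODE M21 for 99.1% of identifiers. Alternatives were 1 FPKM added, a filter at 1 FPKM or none, 3 scalings, eBayes without a trend, all tumors in 1 fit, the replicate number as a block, identifier runs as a covariate and leaving out replicates. The scaling to nuclear protein-coding genes and leaving out PD-1cKO or WT replicates were chosen after seeing the data. Samples with the same replicate number did not deviate together (correlations -0.21 to 0.16), so the numbers were not used as pairs. Python 3.11.15, numpy 2.4.6, pandas 2.3.3 and matplotlib 3.10.9 were used.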

Additional observations from a re-analysis of the deposited data

Results flagged for a closer look

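In 3 of the 60 sets of 4 to 10 samples examined (10 enzymes in 6 groups), the highest tumor lay further from the next than Dixon's limit allows; chance gives about 1 in 20. Arg1 was at 93.25 FPKM in PD-1 Ab replicate 2 after 2 doses, and the next tumor of that group was at 42.5 (gap 0.793 of the range, limit 0.71). Acod1 was at 8.36 FPKM in WT replicate 3, and the next WT tumor was at 3.18 (gap 0.709, limit 0.466). Ass1 was at 34.0 FPKM in WT replicate 9, and the next was at 23.1 (gap 0.493, limit 0.466).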

How the results depend on the processing

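The 5 enzymes called after 2 doses remained 5 under all alternatives but 4: with all tumor groups in 1 fit 3 were called, with 1 FPKM added Kynu fell under 2-fold (0.99), and Arg1 missed the limit with no filter (adjusted p 0.0119) and without PD-1 Ab replicate 3 (adjusted p 0.0107). Leaving out each replicate gave 4 to 5 calls after 2 doses, 3 to 3 in PD-1cKO tumors, 6 to 7 against culture and 0 to 0 elsewhere. Of the 3 enzymes called in PD-1cKO tumors 2 remained with 1 FPKM added or a filter at 1 FPKM (Arg2 was lost), and 0 with identifier runs as a covariate, where Wars was -0.85 and Arg1 -1.04. The replicate block gave 5 calls of the enzymes after 2 doses (316 genes in all against 799), 3 in PD-1cKO tumors (891 against 1217), 6 in place of 7 against culture (Kynu, adjusted p 0.0103), and 0 after 1 dose and at baseline. Other counts over all genes that moved by over 1.5 times were 450 for 2 doses with no filter, and for PD-1cKO 617 with 1 FPKM added, 453 without replicates 4 and 8 and 0 with the runs. Leaving out 1 replicate gave 375 genes (without PD-1 Ab replicate 3) to 1534 (without replicate 5) for 2 doses, 743 (without PD-1cKO replicate 4) to 1871 (without replicate 9) for PD-1cKO, and 13 (without baseline replicate 2) to 166 (without isotype replicate 3) for baseline, against 89. At baseline the other alternatives gave 1 (block) to 149 (all tumors in 1 fit), and for the difference between antibody and deletion 1 (upper-quartile scaling) to 43 (1 FPKM added), against 16, while leaving out 1 replicate gave 2 (without PD-1 Ab replicate 3) to 61 (without replicate 5). After 1 dose, against 0, 2 genes were called with nuclear protein-coding scaling, 7 without isotype replicate 1 and 10 with all tumors in 1 fit.

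Changes of sign occurred only for differences that were not called. For PD-1cKO against WT, Ido1 was 0.0332 with 1 FPKM added, 0.14, 0.15 and 0.11 under median-of-ratios, upper-quartile and nuclear protein-coding scaling, and 0.65 without replicates 4 and 8; Ido2 was 0.0292 with 1 FPKM and 0.50 without these replicates. Leaving out 1 replicate gave ranges of -0.30 to 0.31 for Ido1, -0.0506 to 0.25 for Wars and -0.37 to 0.18 for Ido2, and at baseline -0.20 to 0.12 for Ass1 and -1.20 to 0.39 for Arg1. For the difference between antibody and deletion, Ass1 was 0.0011 with 1 FPKM (-0.0765 to 0.0437 leaving out replicates). Arg2 was -0.18, -0.20 and -0.11 under the 3 scalings (-0.23 to 0.44), and Il4i1 -0.12 and -0.16 under the first 2 (-0.19 to 0.42). For 2 doses against 1, Il4i1 was 0.0779 with 1 FPKM and Wars 0.12, 0.0561 and 0.15 under the scalings. Leaving out replicates there gave -0.0938 to 0.53 for Nos2, -0.31 to 0.21 for Wars, -0.57 to 0.0386 for Ass1, -0.61 to 0.28 for Il4i1 and -0.46 to 0.20 for Ido2. In culture, the balance of Nos2 and Arg1 was 0.53 and with 1 FPKM added 0.0829, and that of the inflammatory enzymes and Arg1 was 1.74 and 0.97. Of the 5 genes most like Acod1 and Arg1, 3 each remained on FPKM as deposited, without the median-of-ratios scaling. Causes were not tested. FPKM gives no depth, so the precision of low values (Arg2, Il4i1) is known only from replicates.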
